A study of Homo sapiens with 4 samples.

Results

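The addition of indisulam to palbociclib was examined by comparing the library of SUM159 cells given both drugs (the combination) with the library of cells given palbociclib alone. Genes were kept when their level averaged at least 5 CPM over these 2 libraries, where CPM is the number of reads of a gene per 1000000 reads in genes of that library. This left 11390 of the 60279 genes listed, in 2 of the 4 libraries of the series. SUM159 is an established triple-negative breast cancer cell line, grown without genetic modification, and each of the 4 conditions (untreated, palbociclib, indisulam and the combination) was sequenced as 1 library. The labels give 0.5 µM palbociclib and 2 µM indisulam for 10 days, whereas the text on the series gives 2 µM palbociclib and 3 µM indisulam for 16 h in technical duplicates, and this conflict could not be settled. The study asked whether the drugs together bring on senescence, a lasting arrest of growth.

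Palbociclib inhibits CDK4 and CDK6, the kinases that phosphorylate the retinoblastoma protein so that E2F factors can switch on genes for DNA replication and mitosis. Indisulam binds the ubiquitin ligase receptor DCAF15 and brings the splicing factor RBM39 to it, after which the RBM39 protein is degraded and splicing errors build up. Senescent cells are known for low levels of cell cycle genes and for the secretion of cytokines, chemokines, growth factors and matrix proteases, which depends largely on the factors NF-kB and C/EBP beta.

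The palbociclib library held 12691481 reads in genes and the combination library 14359529. With 1 library a side there was no replicate, so no p-value was computed, and repeated reads of 1 molecule could not be recognised. A gene was called when it differed at least 2-fold and the 95% exact binomial counting interval of its ratio excluded 1. The fold threshold alone gave the same 1438 calls, so the interval removed no gene. Intervals cover counting error only. As a stand-in for replicate error, a typical SD of 1 log2 ratio over genes was taken from the 4 libraries. It was 0.37 for genes of 5 to 20 CPM, 0.26 for genes of 20 to 100 CPM and 0.28 above that. The replicate error of a gene can be larger. Mesenchymal markers of the line were abundant, with VIM at 2881 CPM under palbociclib and 2643 CPM under the combination. ESR1, PGR, EPCAM and CDH1 stayed below 2 CPM in all 4 libraries, but ERBB2, fixed as a gene of low level, was at 110 to 143 CPM. Of the 8 markers of other cell types, CD3E had no read, PTPRC was at 12.5 and 11.1 CPM, CD14 at 5.44 and 4.596 CPM, and PECAM1 at 40.9 and 20.4 CPM under palbociclib and the combination, and their part in the results was not tested.

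Addition of indisulam to palbociclib changed 1438 of the 11390 genes, which is 12.6% of those tested. Of these, 797 genes were higher in the combination (7%) and 641 were lower (5.63%). Most of the transcriptome moved little, with a median change of 1.28-fold in either direction, and the median log2 ratio of all genes was 0.07. At 8-fold or more, 60 genes were higher and 44 lower. The genes called higher took 2.56% of the gene reads under palbociclib and 7.08% under the combination, and the genes called lower took 6.41% and 2.16%. The split between directions depended on scaling. With TMM factors 651 genes were higher and 783 lower, so that higher genes made up 45.4% of the calls in place of 55.4%. At the 5 CPM limit, THAP2 (5.00 CPM, log2 ratio −0.48) and PLCG2 (5.01 CPM, 1.76) lay just inside, and TBC1D32 (log2 ratio −0.77) lay just outside.

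**Figure D1:**
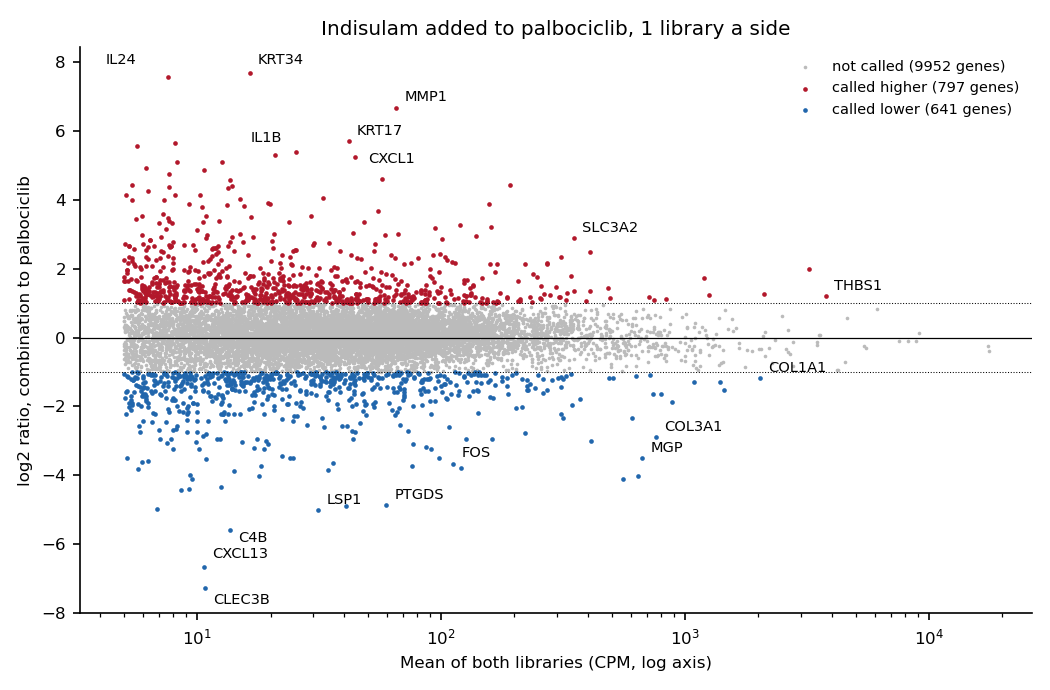
Each point is 1 of the 11390 genes, with the mean level of the palbociclib and combination libraries (CPM, log axis) against the log2 ratio of combination to palbociclib; dotted lines mark 2-fold, red genes were called higher (797) and blue genes lower (641). The genes with the largest ratios lie mostly at low levels, while THBS1 and COL1A1 were called at means above 1000 CPM.

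The genes with the highest ratios were nearly silent under palbociclib. KRT34, a hair keratin (chromosome 17, 41377669 to 41382306 on GRCh38), had 2 reads under palbociclib and 469 under the combination. Its log2 ratio was 7.70 (counting interval 5.83 to 10.75), and its level was 0.637, 0.158, 12.5 and 32.7 CPM in the untreated, palbociclib, indisulam and combination libraries, an order used for all sets of 4 values below. IL24, a cytokine of the IL-10 family, went from 1 read to 217, a log2 ratio of 7.58 (5.09 to 12.89). IL24 was at 0.159, 0.0788, 48.2 and 15.1 CPM, so it was high in both libraries that received indisulam and highest without palbociclib. MMP1, the interstitial collagenase, was at 1.67, 1.26, 41.8 and 129.7 CPM, with a log2 ratio of 6.69 (5.98 to 7.50). KRT17, a keratin of basal epithelial cells, was at 1.19, 1.58, 49.1 and 82.0 CPM, a log2 ratio of 5.70 (5.07 to 6.42). OLAH, a fatty acid thioesterase, and SERPINB2, an inhibitor of plasminogen activators, followed with log2 ratios of 5.66 and 5.56. IL1B, CXCL1, IL1A and CSF3 completed the 10 highest. For all 10 genes, both libraries that received indisulam lay above both that did not.

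The genes with the lowest ratios were nearly lost in the combination. CLEC3B, which encodes the plasminogen-binding protein tetranectin, had 272 reads under palbociclib and 2 under the combination, a log2 ratio of −7.27 (−10.32 to −5.40). CXCL13, a chemokine that attracts B cells, was at 13.5, 21.1, 0.479 and 0.209 CPM, a log2 ratio of −6.66 (−8.95 to −5.10). The complement genes C4B and C4A had log2 ratios of −5.59 and −4.34, but they are near-identical copies whose reads could be split or discarded, so both values are uncertain. LSP1, an actin-binding protein of leukocytes, was at 108, 60.8, 7.90 and 1.88 CPM, a log2 ratio of −5.02 (−5.63 to −4.46). SERPINF1, which encodes the anti-angiogenic factor PEDF, was at 48.9, 79.1, 2.93 and 2.65 CPM. PTGDS, a prostaglandin D2 synthase, was at 28.3, 115, 3.77 and 3.97 CPM. The complement gene C7, the muscle gene MLIP and the pseudogene FER1L4 were the others of the 10 lowest, with log2 ratios from −4.99 to −4.40. For all 10, the indisulam libraries lay below the libraries without indisulam.

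**Figure D2:**
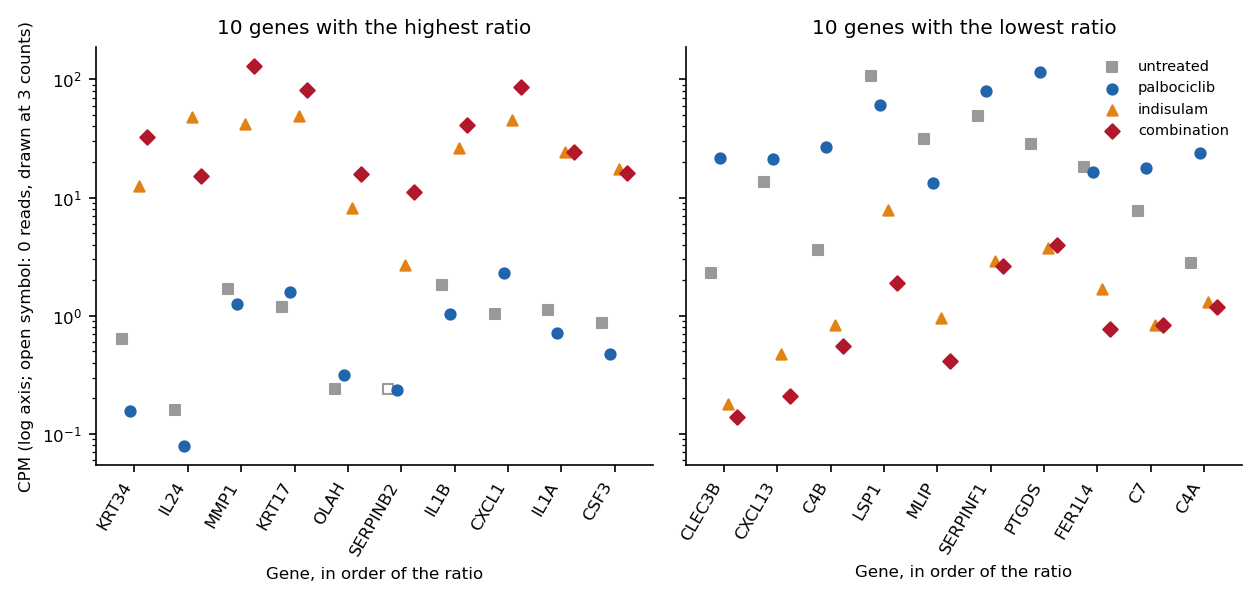
Level in each of the 4 libraries (CPM, log axis) of the 10 genes with the highest and the 10 with the lowest ratio of combination to palbociclib; an open symbol marks 0 reads, drawn at 3 counts. In every gene the indisulam and combination libraries lie on the same side of the untreated and palbociclib libraries, as with MMP1 at 41.8 and 129.7 CPM against 1.67 and 1.26 CPM.

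Abundant genes, chosen after their values were seen, were called in both directions. THBS1, the matrix protein thrombospondin, was at 3267, 2289, 8049 and 5261 CPM, and DCN, the proteoglycan decorin, at 233, 551, 1681 and 1841 CPM. TFRC, the transferrin receptor, was at 222, 261, 593 and 710.1 CPM. In the other direction, MGP, an inhibitor of calcification, was at 159.7, 1228, 40.9 and 108 CPM, a log2 ratio of −3.51 (−3.58 to −3.43). TXNIP, which binds thioredoxin, was at 3147, 1390.2, 721 and 377 CPM, and GLUL, the glutamine synthetase, at 4499, 1209, 687 and 388 CPM. Both were lowest in the combination and highest without treatment.

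The secreted inflammatory factors had the largest median of the lists examined. Of 35 genes, 19 passed the filter, 13 were called higher and 1 lower, and the median log2 ratio of those that passed was 3.01 beside 0.07 over all genes. Of the 19, 11 were under 5 CPM in the palbociclib library, so they could pass only through a high level in the combination, and this count and median do not measure the list as a whole. All 4 neutrophil chemokines that passed were called. Promoter sequences of CXCL1, CXCL2 and CXCL3 are shown because these neighbours on chromosome 4 were called together and share a match to the NF-kB motif, written GGG, any 2 bases, TTT and CC. The stretches are from RefSeq promoters on GRCh38.p14, chr4:73869293-73869352 on the plus strand, chr4:74099236-74099295 on the minus strand and chr4:74038730-74038789 on the minus strand, and capitals mark the motif.
CXCL1: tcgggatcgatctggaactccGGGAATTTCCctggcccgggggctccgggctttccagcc
CXCL2: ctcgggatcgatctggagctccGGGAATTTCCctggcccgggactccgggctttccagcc
CXCL3: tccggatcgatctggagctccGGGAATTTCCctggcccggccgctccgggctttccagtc
The match begins 79, 78 and 79 bases before the annotated start. Promoters of 300 bases were searched on both strands. The motif was found in 4 of the 10 promoters of secreted factors called higher and in 1 of 1 not called. It was found in 2.17% of the 9157 promoters of genes that passed. The similar stretches of CXCL1, CXCL2 and CXCL3 are among the 4, so these matches are not independent. With only 1 promoter not called, whether the motif sets called genes apart cannot be judged. TGANTCA, the letters bound by AP-1, was found in 3 of the 10 promoters of secreted factors called higher and in 4.51% of all.

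CXCL1 was at 1.04, 2.29, 45.6 and 86.8 CPM, a log2 ratio of 5.25 (4.72 to 5.83). Another ligand that attracts neutrophils had more reads, CXCL8 at 9.0, 17.2, 396 and 368 CPM, and a log2 ratio of 4.42 (4.22 to 4.62). CXCL3 was at 1.27, 2.05, 17.5 and 17.9 CPM, and CXCL2 at 8.203, 9.46, 26.4 and 31.4 CPM. These 3 genes resemble each other closely, and reads matching more than 1 place were left out of the counts. Among the interleukins, IL1B was at 1.83, 1.02, 26.0 and 40.9 CPM and IL1A at 1.12, 0.709, 24.1 and 24.5 CPM. These are the ligands of the IL-1 receptor. The gp130 ligand IL6 was at 1.83, 4.57, 28.3 and 36.8 CPM, a log2 ratio of 3.01 (2.62 to 3.43). LIF, another ligand of gp130, was at 0.956, 2.13, 11.2 and 12.05 CPM. The levels of CXCL8, IL1A and LIF differed less between the indisulam and combination libraries than between either of these and the others.

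Of the colony-stimulating factors, CSF3 had a log2 ratio of 5.09 (3.94 to 6.55) and CSF2 one of 4.06 (3.64 to 4.52). CSF2, which drives granulocytes and macrophages, was at 0.0796, 3.70, 16.4 and 61.8 CPM. CSF1, the macrophage factor, was at 313, 367, 528 and 364 CPM, with a log2 ratio of −0.01 (−0.07 to 0.04), and was not called. CCL5 and CXCL11, which attract T cells, were called higher. CXCL12, the ligand of CXCR4, was the only member called lower, at 27.2, 93.4, 18.0 and 34.1 CPM. IL15, IL18, IL32 and CXCL16 passed the filter and were not called. CCL20 had 2 reads under palbociclib and 101 under the combination but did not reach the filter. TNF had 0 and 2 reads and CXCL5 none in either.

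The NF-kB pathway had 7 genes called higher and none lower of 26, with a median of 0.36. The calls were in feedback inhibitors and target genes (6 of 11) and in the adaptor kinase RIPK2, whereas the 5 subunits had a median of 0.29 and none was called. TNFAIP3, which encodes the inhibitor A20, was at 22.7, 40.1, 156 and 182 CPM, a log2 ratio of 2.19 (2.05 to 2.32). BIRC3, an apoptosis inhibitor, was at 36.4, 59.9, 221 and 189 CPM, and ICAM1, an adhesion receptor for leukocytes, at 53.4, 44.1, 106 and 98.5 CPM. Members of AP-1 and C/EBP families moved apart. FOS was at 190.3, 208, 59.7 and 16.4 CPM, a log2 ratio of −3.66 (−3.86 to −3.47), and FOSB fell with it at −3.85 (−4.24 to −3.48). JUNB was lower at −1.10 (−1.20 to −1.01), while FOSL2 was higher at 1.11 (1.03 to 1.19) and JUN was at 0.04 (−0.07 to 0.14). ATF3, a stress-induced repressor, was at 2.71, 2.36, 12.9 and 11.7 CPM, a log2 ratio of 2.31 (1.74 to 2.92). ATF3 was under 5 CPM under palbociclib and passed the filter only through the combination. FOSB was under 5 CPM in the combination and passed only through the palbociclib library. CEBPB, which encodes C/EBP beta, was at 0.34 (0.21 to 0.47) and was not called.

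Growth factor ligands and feedback genes of MAPK signalling included 13 genes called higher and 3 lower of the 35 that passed out of 42, with a median of 0.78. Of the 35, 4 were under 5 CPM in the palbociclib library, INHBA, FGF1 and AREG among them. These 4 passed the filter only through the combination, so this count and median do not measure the list as a whole. INHBA, the activin A subunit, was at 0.398, 1.10, 13.2 and 26.3 CPM, a log2 ratio of 4.57 (3.81 to 5.46). FGF1, an acidic fibroblast growth factor, was at 0.159, 2.52, 7.66 and 37.2 CPM. Among ligands of the EGF receptor, AREG was at 2.87, 1.34, 9.93 and 14.1 CPM and EREG at 19.99, 15.8, 83.5 and 90.9 CPM, while EGFR itself was at −0.10 (−0.21 to 0.01). The genes called lower were EGR1, an early gene at 247, 287, 146 and 37.0 CPM, the feedback inhibitor SPRY1 and the ligand BMP4. EGR1 and FOS, both immediate early genes, were lowest in the combination. With TMM factors 10 of these growth genes were called higher and 3 lower.

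Of the genes for immune checkpoints and tryptophan breakdown, 5 of the 11 that passed were higher and none lower, where 7% of all genes were higher and 5.63% lower. CD274, which encodes PD-L1, was at 16.6, 15.1, 60.2 and 75.6 CPM, a log2 ratio of 2.32 (2.098 to 2.55). PDCD1LG2, which encodes PD-L2, was at 11.9, 19.1, 25.7 and 62.4 CPM, and KYNU, the kynureninase, at 46.5, 26.6, 142 and 85.1 CPM. The other 2 were PVR and IDO1. IDO1 was at 3.70 CPM under palbociclib and passed the filter only through the combination. TDO2, KYAT1 and LGALS9 were not called and had log2 ratios of −0.66, −0.57 and −0.46.

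Mitotic genes, which carry out chromosome condensation, spindle assembly and segregation, were called in 1 direction. Of 77 genes, 73 passed the filter, 35 were called higher and none lower, and 70 of the 73 had a ratio above 1. Only 5 of the 73 were under 5 CPM in the palbociclib library. In RNA from whole cultures, a larger share of cells in mitosis and more of these mRNAs per cell cannot be told apart. The median log2 ratio was 0.93 in the addition of indisulam to palbociclib and 0.47 in indisulam against untreated, where 4 genes were called higher and none lower. Promoter stretches of PLK1, CCNB2 and KIF4A are shown because a kinase, a cyclin and a kinesin called together share the CHR letters TTTGAA, known from genes of late cell cycle, shortly before their starts. They lie at chr16:23678829-23678888, chr15:59105086-59105145 and chrX:70290044-70290103, all on the plus strand of GRCh38.p14 in RefSeq, and capitals mark TTTGAA.
PLK1: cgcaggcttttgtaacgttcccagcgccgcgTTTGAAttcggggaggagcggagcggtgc
CCNB2: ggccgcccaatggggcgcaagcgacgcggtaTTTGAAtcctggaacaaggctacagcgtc
KIF4A: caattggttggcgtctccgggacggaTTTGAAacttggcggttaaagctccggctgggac
The match begins 29, 29 and 34 bases before the start. On either strand, TTTGAA was found in 21 of 29 promoters of mitotic genes called higher, in 21 of 34 of those not called, and in 9.73% of all. CCAAT was also found in 21 of 29 and 21 of 34, against 37.1% of all. Both motifs were thus present in called and in uncalled mitotic genes.

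By role, 8 of 12 kinases, 6 of 11 cyclins and anaphase regulators, 7 of 13 kinetochore genes, 5 of 13 kinesins and 9 of 24 chromosome and spindle genes were called higher. KIF4A, a kinesin of the spindle midzone, was at 36.2, 14.1, 60.7 and 58.6 CPM, a log2 ratio of 2.05 (1.82 to 2.29). PLK1, the polo kinase of mitotic entry, was at 53.8, 12.5, 59.2 and 35.2 CPM, and CCNB2, cyclin B2, at 58.3, 21.98, 77.8 and 54.7 CPM. In these 3 genes the palbociclib library was the lowest of the 4. SKA1, a kinetochore gene, had 41 reads under palbociclib and 181 under the combination, a log2 ratio of 1.96 (1.47 to 2.49), and HMMR, a spindle protein, had a log2 ratio of 1.77 (1.49 to 2.06). MKI67, the proliferation marker Ki-67, was at 126, 44.5, 246 and 129 CPM, a log2 ratio of 1.54 (1.40 to 1.68). In contrast, SMC4 and SMC2, subunits of condensin, were at 0.04 and 0.16, and CDC25B, a CDK phosphatase, was at −0.32. With TMM or DESeq2 factors 31 mitotic genes were called higher and none lower.

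DNA replication genes moved less. All 49 passed, 5 were higher and 1 lower, with a median of 0.35, a share of calls near the 12.6% of all genes. With TMM, DESeq2 or upper-quartile factors 3 were higher and 1 lower. GINS1, of the replicative helicase, was at 7.88, 11.7, 19.9 and 33.8 CPM, RRM2, of ribonucleotide reductase, at 38.1, 20.2, 62.8 and 52.9 CPM, and GMNN, which encodes geminin, at 16.2, 7.56, 25.1 and 18.4 CPM. POLA1, the catalytic subunit of DNA polymerase alpha, was lower, at 22.1, 36.6, 13.2 and 17.8 CPM, a call that was lost with a pseudocount of 1 CPM. Of the homologous recombination and Fanconi genes, 5 of 31 were higher and none lower, or 16.1% called against 12.6% of all genes. BRCA2 led them at 8.203, 7.96, 19.0 and 18.9 CPM. The helicase genes followed, with log2 ratios for BRIP1 at 1.20 (0.96 to 1.45) and BLM at 1.19 (0.83 to 1.55). Of the 31, 7 had a log2 ratio below 0. ATM at −0.89 (−0.99 to −0.79) and ATR at −0.83 (−0.98 to −0.69) were among these and were not called.

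The direct targets of palbociclib were not called alike. CDK6 was higher, at 28.2, 48.1, 60.9 and 107 CPM, a log2 ratio of 1.16 (1.02 to 1.29), while CDK4 was at 121, 148, 119 and 106 CPM, a log2 ratio of −0.48 (−0.58 to −0.39). CDK2 was at 40.1, 36.7, 34.8 and 35.4 CPM, a log2 ratio of −0.05 (−0.24 to 0.13). CCND3, cyclin D3, was lower at −1.02 (−1.12 to −0.92), while CCND1 was at 0.24 (0.19 to 0.29) and CCNE1 at 0.00 (−0.29 to 0.30). E2F7, a repressor of the E2F family, was higher at 2.02 (1.69 to 2.36), and E2F1 was at 0.53 (0.24 to 0.82). RB1 was at 0.17 (0.00 to 0.34) and CDKN1A, which encodes p21, at −0.41 (−0.56 to −0.26). Of the kinase module that activates CDK2, CCNH (cyclin H) was the only member called. It was at 44.4, 45.1, 24.5 and 19.1 CPM, a log2 ratio of −1.24 (−1.45 to −1.03). CDK7 was at 65.5, 48.9, 76.9 and 82.4 CPM, a log2 ratio of 0.75 (0.61 to 0.89), and MNAT1 at 0.20 (−0.05 to 0.45). CCNH (chromosome 5, 87318416 to 87412930) overlaps RASA1 on the opposite strand, and without the strand in the counting, reads of the pair cannot be told apart.

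The mRNA of RBM39 itself was at 342, 237, 376 and 305 CPM, a log2 ratio of 0.37 (0.30 to 0.43), and was not called. Its paralog RBM23 was at 0.00 (−0.14 to 0.14) and DCAF15 at 0.05 (−0.22 to 0.33). None of the 10 genes of RBM39 and the ligase was called. Of the splicing factors, PTBP2, a neuronal regulator of exon choice, was the only one called of 71, at 20.9, 15.2, 46.9 and 34.1 CPM, and the list had a median of 0.23.

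Senescence-associated chromatin genes and lamins all passed. Of 19 genes, 4 were higher and none lower. HMGA1 was at 382, 101, 456 and 314 CPM, a log2 ratio of 1.64 (1.55 to 1.73), HMGA2 at 13.3, 10.5, 26.0 and 33.1 CPM, and the histone variant gene H2AZ1 at 199, 134, 242 and 379 CPM. HMGA1 and HMGA2 encode architectural chromatin proteins. HMGB3 was the other gene called. LMNB1, the lamin whose fall is a common mark of senescence, was at 41.2, 19.0, 43.0 and 26.1 CPM, a log2 ratio of 0.46 (0.22 to 0.70), and was not called.

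Targets of ATF4, the factor of the amino acid and integrated stress responses, included genes called in opposite directions with and without palbociclib. Of 20 genes, 19 passed. In the addition to palbociclib 8 were higher and none lower, where 7% of all genes were higher and 5.63% lower. The median was 0.68, and 6 of the 19 had a log2 ratio below 0. Of the 8, CHAC1 and VLDLR were under 5 CPM under palbociclib and passed the filter only through the combination. In indisulam against untreated SLC3A2 was higher and 4 were lower, with a median of −0.26, and the difference between the comparisons was not tested. The promoter of ASNS is shown because it holds the letters TGATGNAA of an amino acid response element and because this gene was called in opposite directions in these comparisons. It lies at chr7:97872449-97872508 on the minus strand (GRCh38.p14, RefSeq), and capitals mark the match, 68 bases before the start.
ASNS: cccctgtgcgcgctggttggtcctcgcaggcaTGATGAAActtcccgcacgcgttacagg
On either strand, TGATGNAA was found in 3 of 8 promoters of ATF4 targets called higher, in 0 of 8 not called and in 1.74% of all.

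SLC3A2, the heavy chain of an amino acid transporter, had the highest ratio of the ATF4 targets. SLC3A2 was at 121, 83.1, 252 and 616 CPM, a log2 ratio of 2.89 (2.80 to 2.98), and its partner SLC7A5 was at 124, 59.0, 128 and 259.7 CPM. The serine synthesis genes gave PHGDH at 152, 20.6, 85.4 and 83.1 CPM and PSAT1 at 106, 20.4, 39.5 and 77.0 CPM. ASNS, the asparagine synthetase, was at 140.3, 21.9, 58.7 and 54.6 CPM, a log2 ratio of 1.32 (1.12 to 1.52). In PHGDH, PSAT1 and ASNS the untreated library was the highest and the palbociclib library the lowest. DDIT3, CHAC1 and VLDLR were the other genes called. ATF4 itself was at 407, 272, 392 and 272 CPM, and PSPH, DDIT4 and SESN2 had log2 ratios of −0.70, −0.64 and −0.30. None of 15 ER chaperone genes was called, at a median of 0.30.

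**Figure D3:**
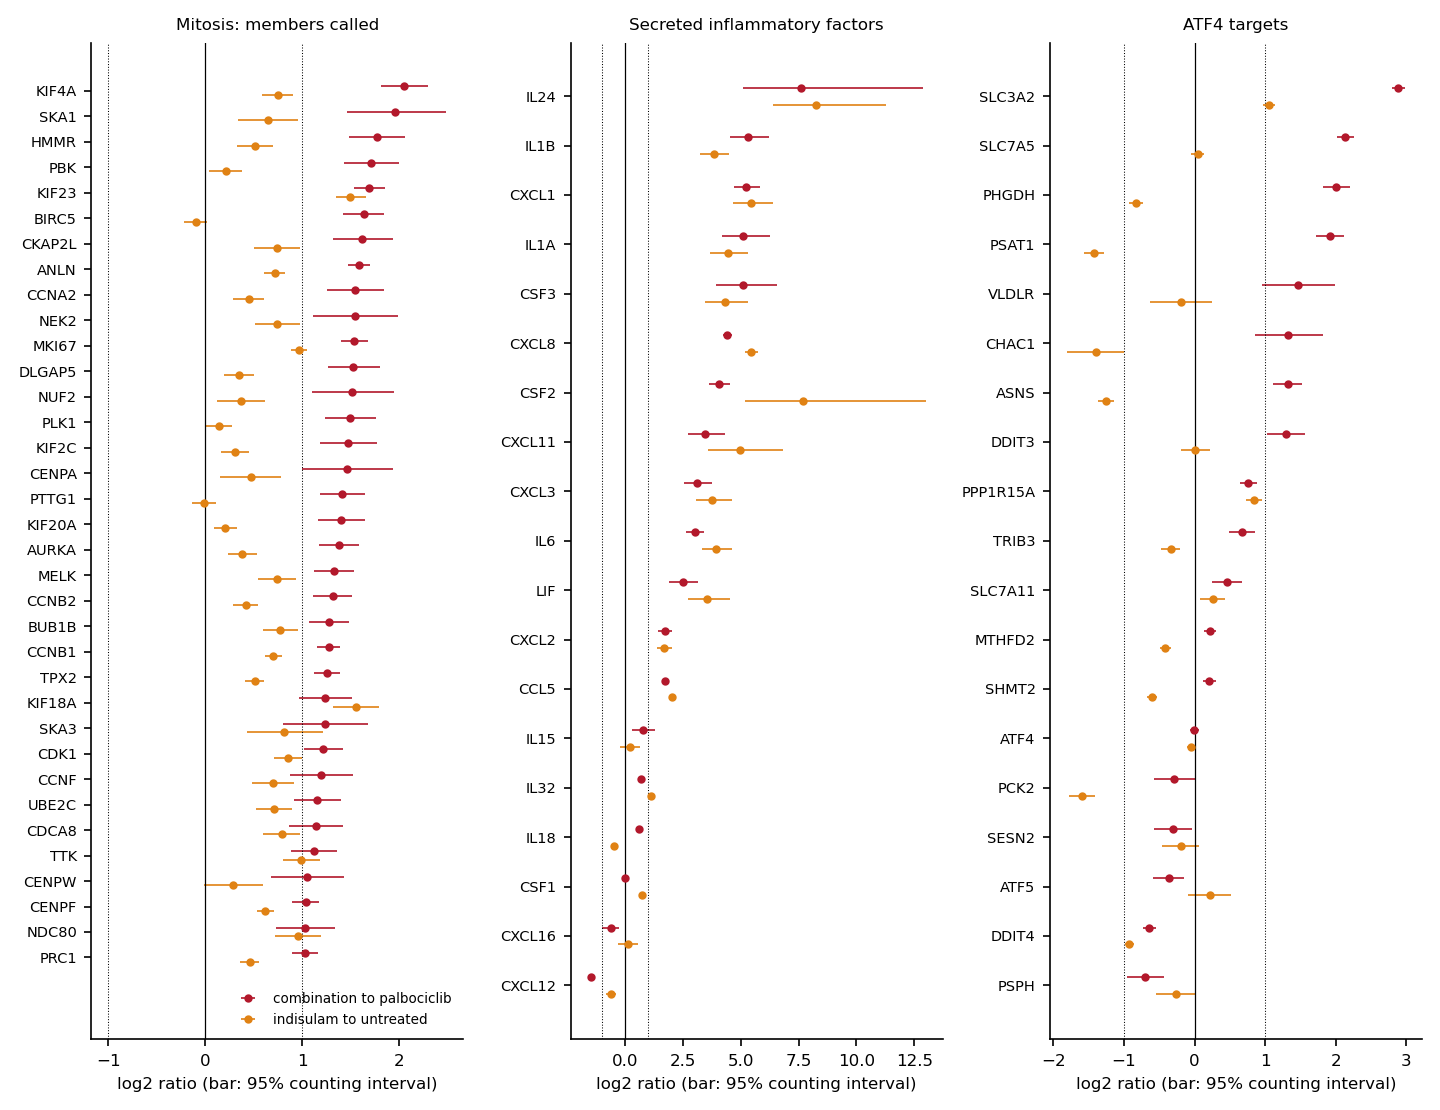
Log2 ratio of combination to palbociclib (red) and of indisulam to untreated (orange) with 95% counting intervals for the 35 mitotic genes called, the 19 secreted inflammatory factors that passed and the 19 ATF4 targets that passed; dotted lines mark 2-fold. Most secreted factors lie beyond 2-fold in both comparisons, but 11 of the 19 passed the filter only through a high level in the combination. Most mitotic genes lay below 2-fold in indisulam against untreated. They were picked by their call in combination against palbociclib, so the 2 comparisons are not on equal terms. PSAT1, CHAC1 and ASNS lay on opposite sides of 0.

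Genes of the cell surroundings moved in both directions. Of the matrix proteases and their inhibitors, 10 of 24 were higher and 2 lower, and 5 of the 24 passed the filter only through the combination. MMP3, stromelysin, was at 0.398, 1.26, 1.02 and 26.7 CPM, a log2 ratio of 4.40 (3.68 to 5.22), and so was high in the combination alone. MMP2, a gelatinase, was lower at 1347, 1976, 968 and 808 CPM, as was MMP7 at 9.16, 18.5, 15.9 and 7.73 CPM. SERPINE2, PI3, PLAUR and PLAT were among those called higher. Of 52 matrix and adhesion genes that passed, 10 were higher and 9 lower, against 10 and 13 with TMM factors and 10 and 11 with DESeq2 factors. LAMB3, a laminin subunit, was at 2.15 (2.06 to 2.24) and COL17A1, of hemidesmosomes, at 2.59 (2.12 to 3.10). ITGB4, the integrin subunit of hemidesmosomes, was lower at 422, 233, 101 and 51.2 CPM, and ITGA10, a collagen receptor, at 232, 224, 116 and 28.8 CPM. COL3A1 was at 168, 1339, 202 and 179 CPM, a log2 ratio of −2.90 (−2.96 to −2.84), and COL1A1 at 1795, 2807, 2148 and 1246 CPM. COL3A1 thus stood out in the palbociclib library, and the other libraries lay between 168 and 202 CPM.

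Complement was the list with the lowest median, at −0.83, with 6 of 14 genes lower and 1 higher. Of the 6, C4A, C4B and SERPING1 were under 5 CPM in the combination and passed the filter only through the palbociclib library, so this count and median do not measure the list as a whole. CFI, which cleaves C3b, was at 26.9, 108, 28.4 and 24.03 CPM, a log2 ratio of −2.16 (−2.34 to −1.99), and the inhibitors SERPING1 and CLU were lower too. C3 was at −0.88 (−0.91 to −0.84) and was not called. CD55, which protects host cells from complement, was higher at 61.2, 36.2, 229 and 145 CPM. The 19 genes of MHC class I presentation had a median of −0.42, and none was called higher.

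Of the epithelial genes, 5 of 10 that passed were higher and none lower, led by KRT17, KRT81 at 3.78 (3.09 to 4.56) and the tight junction gene CLDN1 at 3.68 (3.39 to 3.98). KRT17 and KRT81 were under 5 CPM under palbociclib and passed only through the combination, and 14 of the 24 epithelial genes did not pass. KRT81 has near-identical relatives, so its value is uncertain. Of the mesenchymal genes, SNAI1 was lower at 20.6, 12.3, 6.82 and 3.62 CPM and S100A4 at 396, 399.8, 139 and 171 CPM, while TAGLN and CDH2 were higher. SNAI1 was under 5 CPM in the combination and passed the filter only through the palbociclib library. Interferon response genes were split, with 8 of 49 higher and 4 lower. RSAD2, which encodes the antiviral protein viperin, had 6 reads under palbociclib and 148 under the combination, IFIT3 was at 30.5, 26.9, 64.0 and 134 CPM and HERC5 at 15.5, 4.73, 22.9 and 17.5 CPM. RSAD2 and HERC5 were under 5 CPM under palbociclib and passed only through the combination. IFI44L was lower at 72.9, 84.9, 24.8 and 21.1 CPM, as were IFI35, IFITM2 and the factor STAT2.

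Among p53 targets, PMAIP1, which encodes the death factor NOXA, was higher at 12.3, 7.01, 41.3 and 33.0 CPM, and GADD45A was higher at 1.37. BTG2, an inhibitor of proliferation, was lower at −2.60 (−2.87 to −2.33), FDXR at −2.22 (−2.63 to −1.82) and SESN1 at −1.11 (−1.38 to −0.84). BCL2, an inhibitor of apoptosis, had 98 reads under palbociclib and 54 under the combination, a log2 ratio of −1.04 (−1.54 to −0.54), and was not called with a pseudocount of 1 CPM. BCL2 was at 7.72 and 3.76 CPM in these libraries and passed the filter only through the palbociclib library. Of YAP/TEAD genes, 5 of 29 were higher and 2 lower, where 7% of all genes were higher and 5.63% lower. After TMM scaling, 2 of the 29 were called in each direction, beside 651 higher and 783 lower among all 11390 genes. Under that scaling the list was called about as often as all genes. ANKRD1, a classical target, was at 23.0, 63.1, 114 and 277 CPM, and ARHGEF17 was lower at −1.57 (−1.72 to −1.43). F3, the tissue factor, was at 1.08 (1.04 to 1.13) and was not called with TMM factors.

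Metabolic genes gave few calls. PFKFB4, which raises glycolysis, was at 15.2, 16.1, 38.3 and 77.8 CPM, and ENO2 and CA12 were also higher, the last not with TMM factors. AKR1C2, an aldo-keto reductase with close relatives, was lower at −1.23. SREBF1, the factor of fatty acid synthesis, was lower at 432, 167, 203 and 53.4 CPM, with ACSS2 at −1.15. In lysosomes GAA, GUSB and HEXA were lower, at −2.01, −1.67 and −1.35, and CTSS higher, at 1.30. Cytosolic ribosomal protein genes shifted together by a small amount, 78 of 83 below 0 with a median of −0.29, and only RPL22L1 was called, at −1.19 (−1.35 to −1.03). Proteasome genes had a median of 0.40, with 30 of 32 above 0 and only PSMA2 called. PSMA2 was not called under any of the 4 other scalings, nor with a pseudocount of 1 CPM. No nuclear gene of the respiratory chain (74 passed, median −0.04), mitochondrially encoded gene (13, −0.23) or replication-dependent histone gene (6 of 65 passed, 0.20) was called. Of the aminoacyl-tRNA synthetases only QARS1 was called, lower, and of 3 metallothioneins that passed only MT2A, higher at 182, 61.2, 118 and 195 CPM. The medians of ribosome biogenesis (0.10), zinc finger genes (0.06), RNA surveillance (0.04) and heat shock proteins (0.03) turned below 0 with TMM factors and have no direction here.

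Indisulam was also given without palbociclib, and indisulam against untreated shares no library with the comparison above. On the same 11390 genes, 725 were higher (6.37%) and 544 lower (4.78%), 11.1% in all. Of the 797 genes higher in the combination than under palbociclib, 407 were also higher with indisulam alone, and of the 641 lower, 307 were also lower. The genes called with palbociclib and not without it numbered 382 higher and 329 lower, which does not show that their response differed. Only 13 genes were called in opposite directions. LGR6, a receptor for R-spondins, was at 0.478, 30.7, 1.74 and 3.34 CPM, and RERG, a growth inhibitor of the RAS family, at 1.04, 15.8, 3.77 and 2.37 CPM. Both genes were highest under palbociclib alone and passed the filter only through that library. CP, the copper protein ceruloplasmin, was at 3.82, 51.8, 18.6 and 15.9 CPM and PAPLN, a matrix protein, at 12.4, 75.9, 27.7 and 21.2 CPM. On the other side, KRT15, a basal keratin, was at 10.7, 5.20, 4.79 and 21.0 CPM and LINC01133, a long noncoding RNA, at 8.44, 5.28, 3.71 and 13.5 CPM. Both were highest in the combination. PSAT1, CHAC1 and ASNS, described above, belong to the same set.

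**Figure D4:**
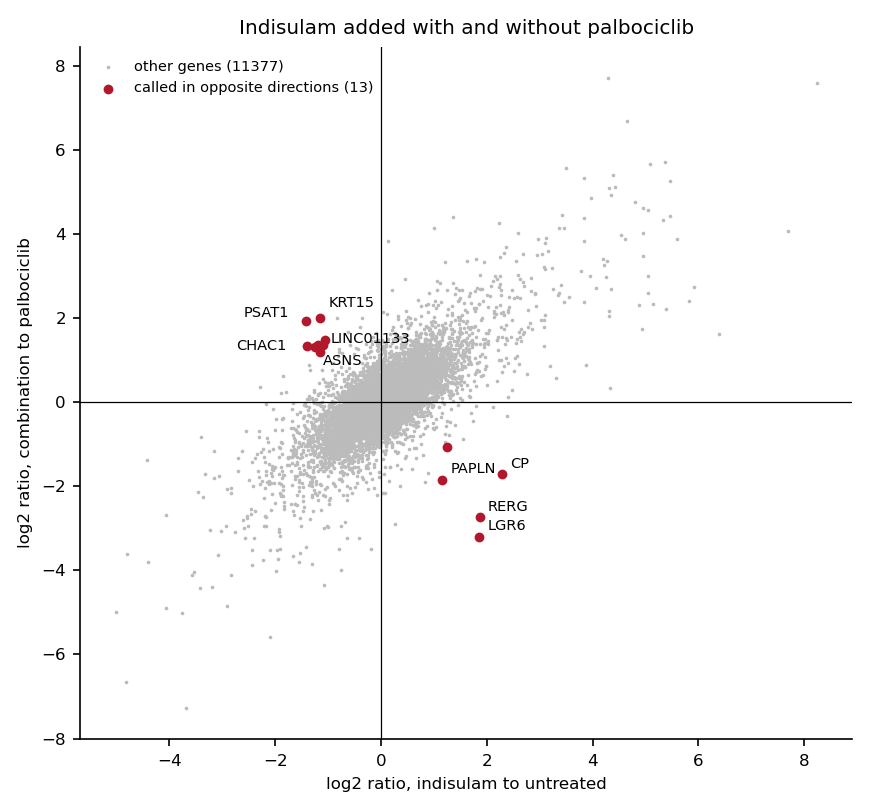
Log2 ratio of indisulam to untreated against log2 ratio of combination to palbociclib for 11390 genes, which come from different libraries. Most genes lie near the centre or in the corners of equal direction, and the 13 red genes were called in opposite directions, such as PSAT1 above on the left and LGR6 below on the right.

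Gene structure separated the genes little. For protein-coding genes, the median log2 ratio was 0.04 with 1 exon (182 genes), 0.09 with 2 to 3, 0.11 with 4 to 7, 0.07 with 8 to 15 and 0.00 with 16 or more exons (2730 genes). By transcript length the medians ran from 0.01 in the shortest to 0.13 in the longest of 5 classes. Long noncoding RNAs were called more often than protein-coding genes, with 14.1% of 326 genes higher and 10.1% lower against 6.67% and 5.399% of 10854. Genes are not replicates, and these shares were not tested.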

How the data were processed

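RNA of SUM159 cells was sequenced as 1 library for each of 4 conditions. The authors made stranded libraries of polyadenylated RNA. The submitters' processing notes name TopHat2 2.1, HTSeq and GRCh38. The annotation release, the strand setting and whether duplicates were pooled are not given in the sources used here. The deposited values are read counts per Ensembl gene, not normalized. Tallies of reads in no gene (0.61% to 0.69%), in more than 1 gene (2.41% to 2.63%) and at more than 1 place (6.46% to 6.84%) were kept out of totals.

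Counts were divided by the library's summed gene counts. Ratios were taken without a pseudocount, and a count of 0 was set to a floor of 3 counts, which no gene tested needed. Counting intervals were exact binomial (Clopper-Pearson) intervals of the combination count in the sum of both counts. At the floor a gene was at 0.236 CPM in the palbociclib library and 0.209 CPM in the combination library. The bound on the spread was the robust SD over genes of the difference between the log2 ratio of combination to palbociclib and that of indisulam to untreated, divided by the square root of 2. It includes any interaction of the drugs. Variation that cancels in this difference, and genes with a wider spread than most, are not covered, so it is not an upper bound. Symbols, biotypes and positions came from GENCODE release 44 on GRCh38 and matched 11329 of the genes tested. Promoters came from RefSeq on GRCh38.p14 and cover 250 bases before to 50 after the start, the first entry for each symbol.

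The comparison and the 40 gene lists were chosen with earlier results on these data known, so no list was tested. Named genes were the 10 highest and 10 lowest called, up to 3 called members a list in each direction, up to 5 called in opposite directions, those nearest the filter and a fixed set around RBM39, CDK2 and RB1. Other members and the 8 most abundant calls in each direction were chosen after their values were seen. Python 3.11.15, scipy 1.17.1, edgeR 4.0.16 and DESeq2 1.42.0 (scaling factors only) were used. The calculation was tested on simulated counts. Some genes that this rule names are not reported here.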

Additional observations from a re-analysis of the deposited data

Results flagged for a closer look

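For 13 genes the call of combination against palbociclib was opposite to that of indisulam against untreated. The difference between the 2 effects was not tested, since each rests on 1 library a side. The log2 ratio with palbociclib minus that without it was 3.34 for PSAT1, 3.17 for KRT15, 2.72 for CHAC1, 2.58 for ASNS and 2.54 for LINC01133. It was −5.06 for LGR6, −4.61 for RERG, −3.99 for CP, −2.999 for PAPLN and −2.31 for ENSG00000275110, annotated as a miRNA gene on chromosome X. Over the genes tested, the robust SD of this difference was 0.52 at 5 to 20 CPM and 0.37 at 20 to 100 CPM. These levels are means of the palbociclib and combination libraries. In the untreated and indisulam libraries LGR6 had 6 and 29 reads and RERG 13 and 63, which is under 5 CPM. Both passed the filter only through the palbociclib library. The genes named here were picked by the size of the same difference.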

How the results depend on the processing

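The number of genes called stayed within 1.5 times under 7 of the 12 alternatives, namely the 4 other scalings, both pseudocounts and the fold threshold without the counting interval (1275 to 1455). It was 2519 (1446 higher, 1073 lower) at a mean of 1 CPM, 738 (402 and 336) at 20 CPM, 3354 (2009 and 1345) without a filter, 3402 (1891 and 1511) at 1.5-fold and 521 (287 and 234) at 3-fold. More or fewer genes enter under these by construction. TMM factors shifted the median of all genes by −0.10, and 6 of 141 named calls were lost (CA12, F3, PLCG2, POLR1G, PSMA2 and ZNF93), while 6 were lost with a pseudocount of 1 CPM (BCL2, PECAM1, POLA1, POLR1G, PSMA2 and ZNF688). None of the 141 was reversed by the 4 scalings or that pseudocount. The median of the secreted factors was 2.45 at 1 CPM, 1.73 at 20 CPM and 2.63 with a pseudocount of 1 CPM. That of the growth factor genes was 0.37, of the checkpoint genes 1.51, of the BCL2 family 0.05 and of histones −0.67 (1 gene) at 20 CPM, and that of complement −1.20 at 1 CPM. The G1 list changed sign at 1 CPM. No paired analysis was possible because each condition had 1 library. With 1 library a side, a difference between conditions and one between cultures, extractions or runs cannot be told apart.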

Other observations

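The median log2 ratio differed between chromosomes. On chromosome 17 it was −0.13 over 687 genes, with 10.2% of genes called lower against 5.63% of all genes, and in indisulam against untreated it was −0.22 with 11.5% lower against 4.78%. On chromosome 13 it was 0.30 over 197 genes with indisulam added to palbociclib and 0.35 with indisulam alone, and 11.7% of genes were called higher in each. The snoRNA host genes had a median of 0.00 over 16 genes with palbociclib and 0.60 without it, where 2 were called higher. The zinc finger genes gave 8 calls higher and 5 lower of 342 with palbociclib, and 26 higher and 1 lower without it, where 6.37% of all genes were higher and 4.78% lower. With TMM factors 4 were higher and 7 lower of 341 with palbociclib. Whether these values differ between the 2 comparisons was not tested. Mitochondrially encoded genes took 7.33% of gene reads under palbociclib and 6.55% under the combination.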
